A study of Homo sapiens with 12 samples.

Results

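The long noncoding RNAs MIR210HG, PDK1-AS1, GAS6-AS1, NEAT1, MALAT1 and MIR22HG were followed across the 4 conditions of an RNA-seq experiment in FDX2-iKO ES2 cells. They were chosen by their measured response to oxygen in these libraries, and they are 6 of the 58735 genes in the count table. All 6 passed the filter on low counts, as did 2960 long noncoding genes among the 16891 genes tested. Since the levels at 3% and 20% O2 selected the genes, the oxygen responses of these 6 are given as a description without a test. The response to FDX2 loss was tested.

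ES2 is a human ovarian cancer line. In FDX2-iKO ES2 cells, the endogenous FDX2 gene had been knocked out by genome editing after the cells received an editing-resistant, HA-tagged FDX2 whose transcription needs doxycycline (Doxy). Cells of all 4 conditions carried these changes together with the tTS/rtTA regulators, so that culture with Doxy kept FDX2 and culture without Doxy removed it. The 4 conditions were "20% O2 + Doxy", "20% O2 wo Doxy", "3% O2 + Doxy" and "3% O2 wo Doxy", each with 3 biological replicates. Cells at 20% O2 were kept for 6 days with or without Doxy, whereas those at 3% O2 had 4 days at 20% O2 followed by 3 days at 3% O2. Oxygen level and total time in culture therefore differ together and cannot be told apart. The study used clone #1 of 2 clones unless it stated otherwise, and a clone effect was not tested.

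Libraries held 24958386 to 34313637 counts (median 29621780). FDX2 itself had 2 to 13 counts in every library, with 70.9% of its annotated exonic bases shared with another gene, so its counts do not check the loss. KRT7 (417 to 677 CPM, the count scaled to library depth after TMM normalization), KRT18, VIM and FN1 were abundant and PAX8 lay between 5.59 and 19.3 CPM. EPCAM, WT1 and MUC16 had at most 8 counts, as did the blood markers PTPRC, CD14, CD3E and HBB. Of the 2 endothelial markers, PECAM1 reached 5 counts at most while CDH5 lay between 22.1 and 51.4 CPM. One library stood apart. In 3% O2 wo Doxy replicate 1, genes that are antisense by annotation type or by name (a symbol ending in -AS) took 1.30% of the counts, against 0.408% to 0.652% in the other 11 libraries. Of the 1690 such genes tested, 55.5% had their highest level in that library, compared with 14.7% of other long noncoding genes and 7.87% of protein-coding genes. Some results that rest on it are given with and without it, and the others are given with it only.

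Low oxygen is sensed through the HIF transcription factors, whose alpha subunits are hydroxylated and degraded when oxygen is plentiful. Among noncoding targets of HIF, the miR-210 locus is one of the best known, and MIR210HG is the transcript that hosts the microRNA. miR-210 represses ISCU, the scaffold on which Fe-S clusters are assembled, and FDX2 supplies electrons to that same assembly. NEAT1 is the RNA around which nuclear paraspeckles form, MALAT1 is an abundant RNA of nuclear speckles, and MIR22HG hosts miR-22. PDK1-AS1 and GAS6-AS1 are transcribed from the strand opposite to PDK1, the kinase that inhibits pyruvate dehydrogenase, and to GAS6, the ligand of the TAM receptor kinases.

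The sequences that identify the hosted microRNAs are shown here because the libraries report their host transcripts rather than the mature molecules. They are RefSeq entries on GRCh38.p14, written 5′ to 3′ with the seed (bases 2 to 8) in capitals. miR-210 lies at chr11:568112-568133 (3p arm) and chr11:568150-568171 (5p arm) on the minus strand, within an intron of MIR210HG as GENCODE 29 draws it. miR-22 lies at chr17:1713914-1713935 (3p arm) and chr17:1713952-1713973 (5p arm) on the minus strand, and the whole MIR22 precursor is exonic in MIR22HG. The 4 seeds are all different.
hsa-miR-210-3p: cUGUGCGUgugacagcggcuga
hsa-miR-210-5p: aGCCCCUGcccaccgcacacug
hsa-miR-22-3p: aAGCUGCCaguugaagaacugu
hsa-miR-22-5p: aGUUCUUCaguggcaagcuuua
Mature microRNAs lack a poly(A) tail and were not measured in these poly(A)-selected libraries.

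Promoter windows are shown for the 2 members with the largest oxygen response and for PDK1, since RefSeq start sites are known for them. Each holds 250 bases before and 50 after the start, on the strand of the gene, on GRCh38.p14. Capitals mark matches to ACGTG or GCGTG, the core letters of the hypoxia response element, read on both strands (CACGT and CACGC on the other strand). The MIR210HG window is chr11:568408-568707 (minus strand), the PDK1-AS1 window chr2:172556415-172556714 (minus strand) and the PDK1 window chr2:172555840-172556139 (plus strand).
MIR210HG: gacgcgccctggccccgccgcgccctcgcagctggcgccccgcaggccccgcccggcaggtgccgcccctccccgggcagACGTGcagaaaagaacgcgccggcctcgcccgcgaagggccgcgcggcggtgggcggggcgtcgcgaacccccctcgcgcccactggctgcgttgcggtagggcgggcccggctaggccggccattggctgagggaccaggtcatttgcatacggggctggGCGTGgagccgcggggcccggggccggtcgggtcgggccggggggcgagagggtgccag
PDK1-AS1: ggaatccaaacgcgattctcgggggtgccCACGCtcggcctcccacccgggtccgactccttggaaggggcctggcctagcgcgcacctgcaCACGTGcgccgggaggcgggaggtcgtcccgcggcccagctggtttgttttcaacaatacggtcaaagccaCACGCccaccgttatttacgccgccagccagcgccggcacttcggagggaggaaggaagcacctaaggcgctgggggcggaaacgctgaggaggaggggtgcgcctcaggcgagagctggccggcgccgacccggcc
PDK1: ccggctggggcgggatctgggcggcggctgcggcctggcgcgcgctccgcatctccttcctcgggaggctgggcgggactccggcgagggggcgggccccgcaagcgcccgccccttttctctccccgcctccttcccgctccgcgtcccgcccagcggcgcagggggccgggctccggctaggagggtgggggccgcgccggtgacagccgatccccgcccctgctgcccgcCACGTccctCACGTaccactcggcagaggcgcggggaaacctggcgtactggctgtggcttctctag
MIR210HG had 2 matches, 170 and 9 bases before the start, and one of them was ACGTG. PDK1-AS1 had 4 matches, of which 2 are the overlapping readings of a single CACGTG that begins 158 bases before the start. RefSeq gives 2 PDK1 starts, and the window of the other one, chr2:172555123-172555422, held no match. The PDK1 window shown held 2 ACGTG matches on the other strand, 17 and 8 bases before the start. Of the other members, MIR22HG had 2 matches and the 2 MALAT1 starts had 2 and 1. Such matches are frequent, since 48.4% of 35116 promoters of this length held at least 1, 23.1% at least 2 and 4.40% at least 4, while 21.4% held ACGTG. A match describes the letters and is no evidence of binding.

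MIR210HG (ENSG00000247095, chr11:565660-568457, minus strand, GRCh38) was close to silent at 20% O2 and was abundantly read at 3% O2. None of its 2321 exonic bases is shared with another gene. With Doxy at 20% O2 the 3 libraries held 23, 19 and 16 counts, and without Doxy they held 8, 22 and 12. At 3% O2 the counts were 343, 326 and 472 with Doxy and 211, 226 and 327 without. The 2 oxygen levels lay far apart, with at most 23 counts in any library at 20% O2 and at least 211 at 3% O2, whereas in CPM the libraries with and without Doxy overlapped at 20% O2 and did not at 3% O2. In CPM, the level was 0.631 ± 0.141 (SD, n = 3) at 20% O2 + Doxy and 12.9 ± 2.12 at 3% O2 + Doxy, and it was 0.447 ± 0.225 and 9.22 ± 0.880 without Doxy. In RNA from whole cultures, fewer cells with a transcript and less of it per cell cannot be told apart. The fitted oxygen response was 4.36 on the log2 scale with Doxy and 4.35 without, equal to 20.5-fold and 20.4-fold. Only 5 of the 16891 tested genes had a larger value with Doxy and 4 without. The miR-210 precursor had its own entry in the table, with at most 10 counts in any library, and LMNTD2, RASSF7 and PHRF1, the tested genes within 10 kb, did not pass the test between oxygen levels with Doxy (adjusted p of 0.331, 0.910 and 0.986, edgeR's quasi-likelihood test). Without Doxy, PHRF1 was higher at 3% O2 (log2 0.83, adjusted p = 0.0177, edgeR), and LMNTD2 (0.73, adjusted p = 0.0813) and RASSF7 (0.66, adjusted p = 0.0795) did not pass.

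PDK1-AS1 (ENSG00000225205, chr2:172480840-172556596, minus strand) was 4.61-fold higher at 3% than at 20% O2 with Doxy and 4.59-fold higher without. Its counts were 68, 55 and 81 at 20% O2 + Doxy and 69, 63 and 43 at 20% O2 wo Doxy. They were 307, 241 and 344 at 3% O2 + Doxy and 270, 186 and 242 at 3% O2 wo Doxy, with no overlap between the oxygen levels. The log2 response without Doxy was 2.20, and it was 2.00 when 3% O2 wo Doxy replicate 1 was left out. That library had 10.9 CPM and the other 2 of its condition 7.38 and 7.55. PDK1-AS1 shares 445 exonic bases with PDK1 and 52 with ITGA6, both on the opposite strand, which is 20.3% of its 2447 exonic bases. Whether reads were counted by strand is not given in the sources used here, so reads from the shared bases cannot be assigned to either gene.

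PDK1 itself rose at 3% O2, from 34.7 ± 1.76 to 76.6 ± 4.16 CPM with Doxy (log2 1.14 ± 0.07 SE, adjusted p = 5.54e-06, edgeR's quasi-likelihood test). Without Doxy it rose from 35.7 ± 1.72 to 58.0 ± 4.03 CPM (log2 0.70 ± 0.07, adjusted p = 7.29e-05). Relative to PDK1, the level of PDK1-AS1 was 5.69% to 6.64% at 20% O2 + Doxy and 11.3% to 15.002% at 3% O2 + Doxy. Without Doxy the ratio was 3.75% to 6.14% at 20% O2 and 12.1% to 20.0% at 3% O2, where the highest value belonged to replicate 1. The ratio was thus higher at 3% than at 20% O2 in every library, and it was not tested, since PDK1-AS1 was chosen by this response. ITGA6, the integrin gene at the other end of the locus, did not pass the test in either oxygen comparison (log2 −0.08 and −0.08, adjusted p of 0.615 and 0.281).

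**Figure D1:**
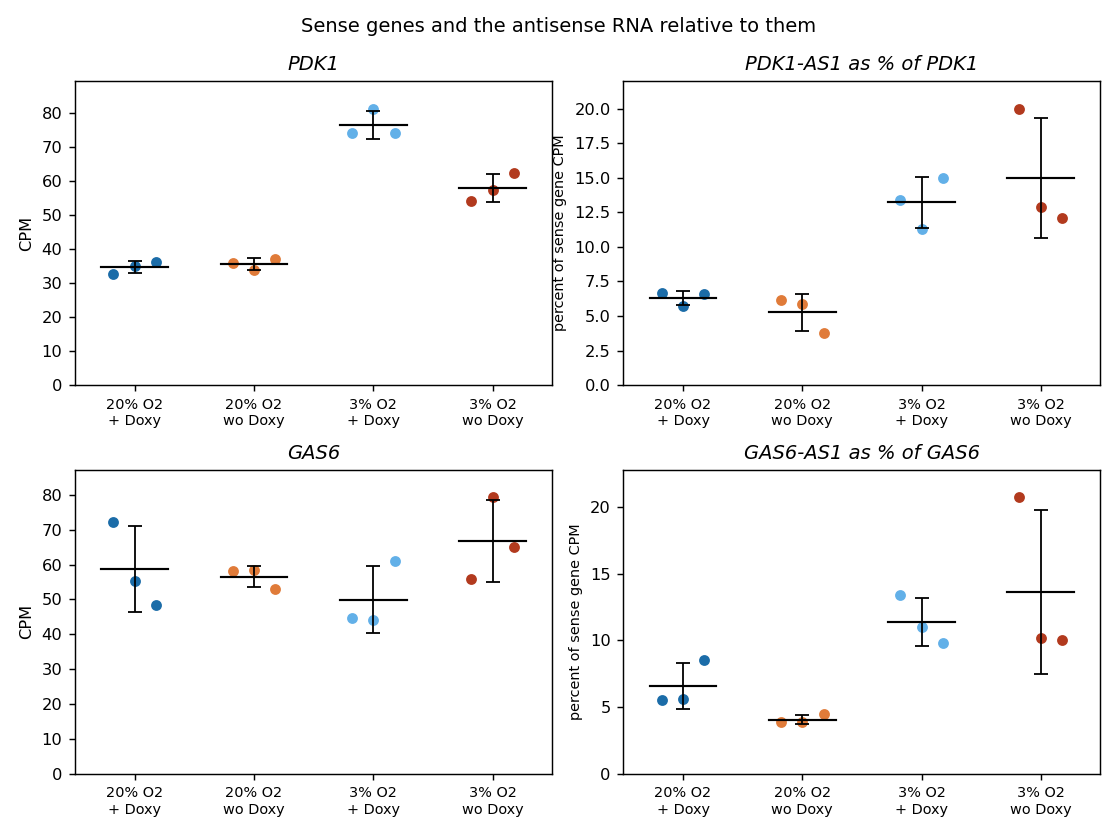
Left, level of PDK1 and GAS6 (CPM) in each library. Right, PDK1-AS1 as a percentage of PDK1 and GAS6-AS1 as a percentage of GAS6. Points are libraries, lines are means and bars the SD (n = 3). Both ratios are higher at 3% than at 20% O2 in all libraries, and the highest point of each belongs to 3% O2 wo Doxy replicate 1.

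GAS6-AS1 (ENSG00000233695, chr13:113815630-113845744, plus strand) had a smaller and less even oxygen response. It was counted 125, 86 and 141 times at 20% O2 + Doxy and 184, 127 and 185 times at 3% O2 + Doxy. Without Doxy the counts were 70, 71 and 73 at 20% O2 and 288, 203 and 209 at 3% O2. As CPM, the conditions ranked 20% O2 wo Doxy (2.29 ± 0.0734), 20% O2 + Doxy (3.75 ± 0.556), 3% O2 + Doxy (5.60 ± 0.646) and 3% O2 wo Doxy (8.72 ± 2.60), and no neighbours in this order overlapped. The oxygen response was 1.49-fold with Doxy and 3.80-fold without. On the log2 scale the latter was 1.93, and 1.67 without 3% O2 wo Doxy replicate 1, which held 11.6 CPM against 6.52 and 8.06 in the other 2. GAS6-AS1 shares 421 exonic bases with GAS6 on the opposite strand and 62 with TMEM255B on its own strand, together 6.74% of its exonic bases. GAS6 did not pass the test in either oxygen comparison (log2 −0.23, adjusted p = 0.653 with Doxy, and 0.24, adjusted p = 0.321 without). Corrected for the GC content of transcripts, GAS6 was called lower at 3% O2 with Doxy (log2 −0.22, adjusted p = 0.00631, edgeR). Without Doxy its corrected value was −0.11 and not called (adjusted p = 0.0520). GAS6-AS1 was 5.53% to 8.56% of GAS6 at 20% O2 + Doxy and 9.81% to 13.4% at 3% O2 + Doxy.

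NEAT1, MALAT1 and MIR22HG showed another pattern, in which the level at 20% O2 wo Doxy stood above that of the other 3 conditions. With Doxy, they hardly differed between oxygen levels. NEAT1 (ENSG00000245532, chr11:65422774-65445540, plus strand) had 189 to 193 CPM at 20% O2 + Doxy and 177 to 214 at 3% O2 + Doxy. MALAT1 (ENSG00000251562, chr11:65497688-65506516, plus strand) had 102 to 117 and 89.8 to 113 CPM in the same conditions, and in both genes the libraries overlapped. MIR22HG (ENSG00000186594, chr17:1711493-1717174, minus strand) had 18.046 to 19.3 CPM at 20% and 17.2 to 17.8 at 3% O2, close but without overlap. Log2 responses to oxygen with Doxy were 0.05 for NEAT1, −0.12 for MALAT1 and −0.10 for MIR22HG.

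Without Doxy, all 3 were lower at 3% than at 20% O2. NEAT1 had 522, 547 and 559 CPM at 20% O2 and 268, 311 and 340 at 3% O2. MALAT1 had 338, 343 and 372 CPM at 20% O2 and 171, 166 and 188 at 3% O2, a 2.00-fold difference. MIR22HG had 29.4, 29.3 and 29.3 CPM at 20% O2 and 23.6, 22.6 and 23.019 at 3% O2. No library overlapped between the oxygen levels in any of them, and the 3 log2 responses were −0.83, −1.002 and −0.35. Leaving out 3% O2 wo Doxy replicate 1 gave −0.74, −0.98 and −0.36. Corrected for the GC content of transcripts, the MIR22HG response was −0.50.

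**Figure D2:**
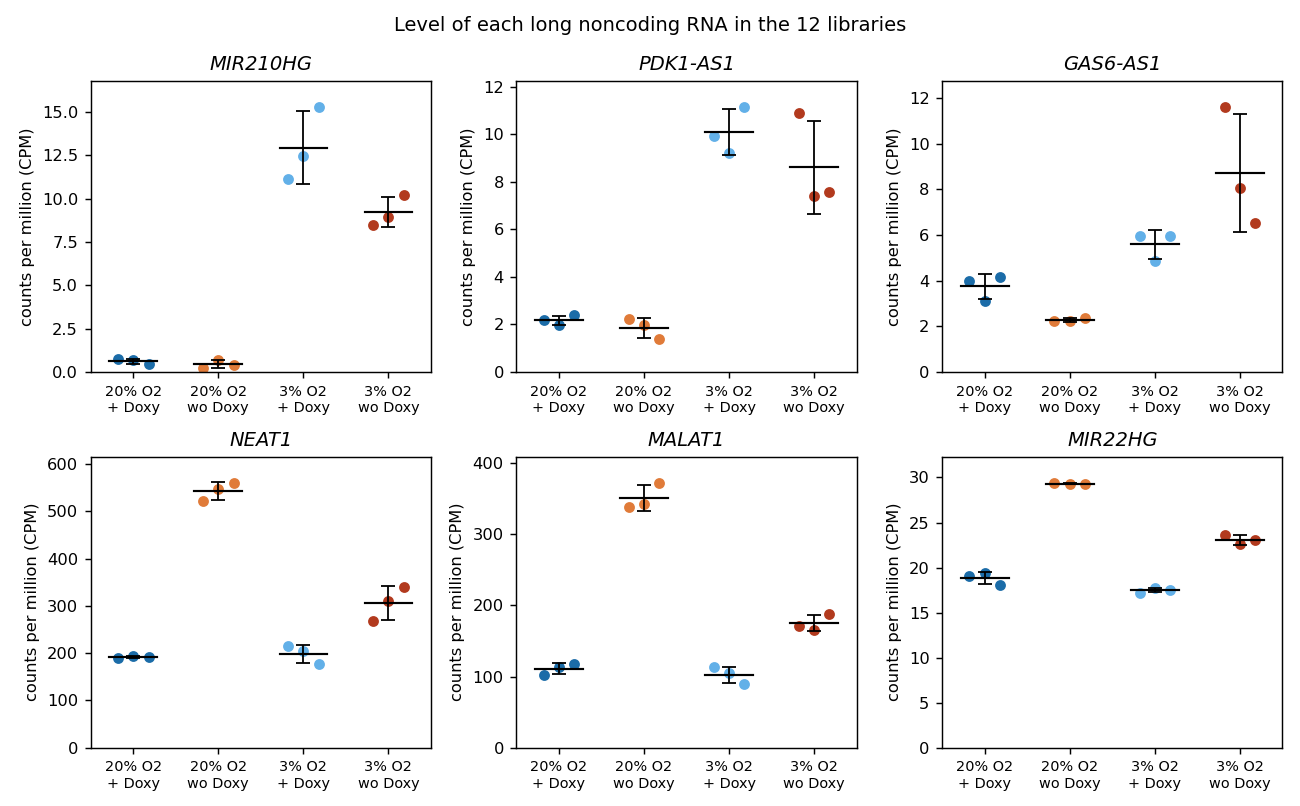
Level (CPM, y axis from 0) of the 6 RNAs in each of the 12 libraries by condition. Points are libraries, horizontal lines are means and bars the SD (n = 3). MIR210HG, PDK1-AS1 and GAS6-AS1 are highest at 3% O2, and NEAT1, MALAT1 and MIR22HG are highest at 20% O2 wo Doxy.

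Per kilobase of exon, the 6 RNAs spanned a wide range. At 20% O2 + Doxy, MALAT1 stood at 12.6 ± 0.864 CPM per kb, NEAT1 at 8.40 ± 0.0971 and MIR22HG at 6.30 ± 0.231. PDK1-AS1 (0.892 ± 0.0793), GAS6-AS1 (0.523 ± 0.0775) and MIR210HG (0.272 ± 0.0609) followed in that order. At 3% O2 + Doxy, MIR210HG stood at 5.57 ± 0.913 CPM per kb, next to MIR22HG at 5.87 ± 0.0905. The gene length used is the union of annotated exons. For NEAT1 it is that of the long isoform, and the counts do not separate its short and long isoforms. Neither MALAT1 nor the long NEAT1 isoform ends in a conventional poly(A) tail, so their CPM describe what the poly(T) purification retained.

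FDX2 loss was tested by comparing cells without and with Doxy. Doxy and FDX2 differ together in this comparison in all libraries, so their effects cannot be told apart. At a single oxygen level, this comparison shares libraries with the oxygen responses that selected the genes. The mean of both FDX2-loss responses gives each oxygen level the same weight, so that the oxygen contrast cancels from it, and it is given as well. It was added after the data had been seen. NEAT1, MALAT1 and MIR22HG rose upon FDX2 loss at each oxygen level and in the mean. MIR210HG and PDK1-AS1 passed the test in none of these. GAS6-AS1 fell at 20% O2.

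At 20% O2, NEAT1 rose 2.84-fold upon FDX2 loss (log2 1.51 ± 0.09 SE, adjusted p = 7.45e-07, edgeR, adjusted over all 16891 genes tested). MALAT1 rose 3.16-fold (log2 1.66 ± 0.09, adjusted p = 4.27e-07), and MIR22HG rose 1.56-fold (log2 0.64 ± 0.05, adjusted p = 3.34e-06). GAS6-AS1 fell by 0.71 on the log2 scale (SE 0.20, adjusted p = 0.0180), a call that was lost without 20% O2 + Doxy replicate 1 or 3 or without 20% O2 wo Doxy replicate 1 (adjusted p of 0.0508, 0.0546 and 0.0593). With the GC correction it was −0.53 and not called (adjusted p = 0.0931, edgeR). So 3 of the 6 were called higher and 1 lower, where 17.6% of all tested genes were called higher and 17.7% lower. The libraries at 20% O2 also entered the choice of the 6 RNAs, so nothing is read from this tally. MIR210HG changed by −0.48 (95% confidence interval −1.19 to 0.23, adjusted p = 0.273) and PDK1-AS1 by −0.23 (−0.66 to 0.21, adjusted p = 0.418). MIR210HG rests on 8 to 23 counts here, and it ranged from −0.97 without 20% O2 wo Doxy replicate 2 (adjusted p = 0.0298, edgeR) to −0.20 without replicate 1 (adjusted p = 0.689), with −0.23 under the GC correction (adjusted p = 0.569). PDK1-AS1 ranged from −0.36 without 20% O2 wo Doxy replicate 1 to −0.08 without replicate 3, and was not called in either.

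At 3% O2, the same 3 RNAs rose by smaller amounts. NEAT1 was 1.54-fold higher without Doxy (log2 0.62 ± 0.09, adjusted p = 0.00207, edgeR), MALAT1 1.71-fold (0.77 ± 0.09, adjusted p = 0.000702) and MIR22HG 1.32-fold (0.40 ± 0.05, adjusted p = 0.00102). In a fit to the 6 libraries compared alone, the NEAT1 value was 0.59 and no longer passed the test (adjusted p = 0.0685, edgeR). Without 3% O2 wo Doxy replicate 1, NEAT1, MALAT1 and MIR22HG rose by 0.71, 0.79 and 0.38 on the log2 scale and stayed called. GAS6-AS1 was higher in all 3 libraries without Doxy (log2 0.64 ± 0.19) and missed the threshold with an adjusted p of 0.0712. It passed without 3% O2 wo Doxy replicate 3 (0.81, adjusted p = 0.0325) and by DESeq2 (0.62, adjusted p = 0.0466), and without replicate 1 its value was 0.37 (adjusted p = 0.182). MIR210HG was lower without Doxy in every library (−0.49, interval −0.96 to −0.02), but its adjusted p was 0.200. PDK1-AS1 changed by −0.23 (−0.62 to 0.16, adjusted p = 0.468), with −0.44 without replicate 1 of 3% O2 wo Doxy (adjusted p = 0.127), −0.14 without replicate 2 (adjusted p = 0.744) and −0.15 without replicate 3 (adjusted p = 0.723). Of all tested genes, 4.2% were called higher and 3.11% lower.

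In the mean over both oxygen levels, NEAT1 rose by 1.07 ± 0.06 on the log2 scale (adjusted p = 6.02e-07, edgeR), MALAT1 by 1.22 ± 0.06 (adjusted p = 3.09e-07) and MIR22HG by 0.52 ± 0.03 (adjusted p = 1.34e-06). These 3 calls compare with 17.9% of all tested genes called higher and 16.1% called lower. The mean response of MIR210HG was −0.48 (adjusted p = 0.0730), and it passed the test without 20% O2 + Doxy replicate 3 (adjusted p = 0.0481) or without 20% O2 wo Doxy replicate 2 (adjusted p = 0.00671) and by DESeq2 (adjusted p = 0.0350). That of PDK1-AS1 was −0.23 (adjusted p = 0.208), and −0.33 with an adjusted p of 0.0423 without 3% O2 wo Doxy replicate 1. GAS6-AS1 averaged −0.04 (adjusted p = 0.847), its 2 responses having opposite signs.

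**Figure D3:**
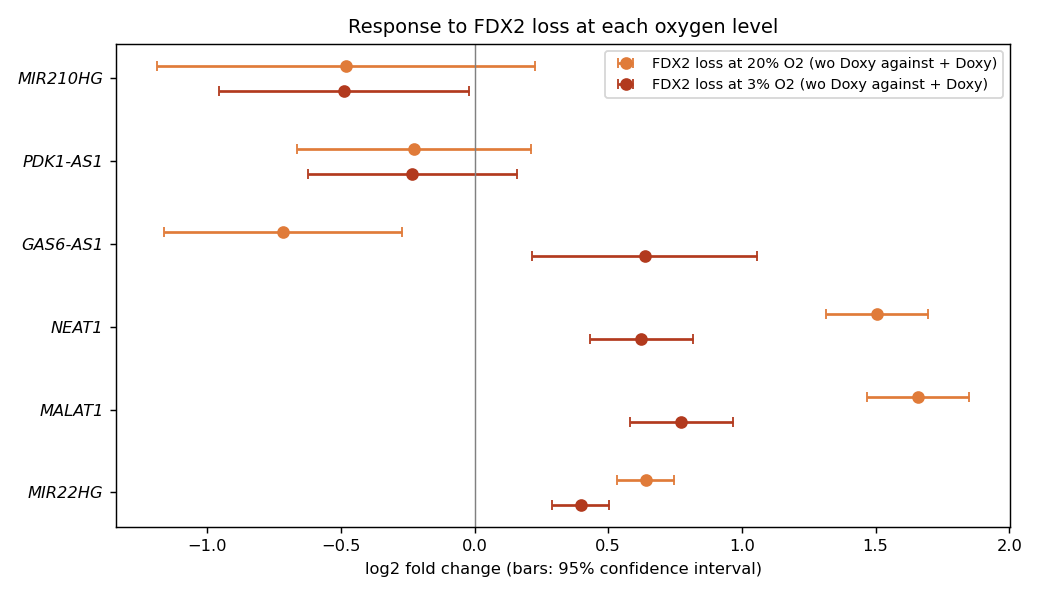
Log2 fold change of the 6 RNAs upon FDX2 loss (wo Doxy against + Doxy) at 20% and at 3% O2, with 95% confidence intervals from the fit to 12 libraries. NEAT1, MALAT1 and MIR22HG lie above 0 at both oxygen levels, and GAS6-AS1 lies at −0.71 at 20% O2 and 0.64 at 3% O2.

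The difference between the FDX2-loss responses at 3% and 20% O2 is by construction also the difference between the 2 oxygen responses, so it is described for the 6 RNAs without a test. It was −0.88 ± 0.12 (SE) for NEAT1, −0.88 ± 0.12 for MALAT1 and −0.24 ± 0.07 for MIR22HG on the log2 scale. With the GC correction the MIR22HG value was −0.37. For GAS6-AS1 it was 1.35 ± 0.28, and 1.09 without 3% O2 wo Doxy replicate 1. MIR210HG had −0.01 ± 0.39 and PDK1-AS1 −0.01 ± 0.27, and neither sign was stable. The MIR210HG value ranged from −0.34 with the GC correction to 0.46 without 20% O2 wo Doxy replicate 2, and the PDK1-AS1 value from −0.21 to 0.12 with each library left out. Among all genes, 3.21% were called higher and 4.08% lower in this comparison.

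Long noncoding genes as a class give the setting for these values. Upon FDX2 loss at 20% O2, 512 of the 2960 tested (17.3%) were called higher and 112 (3.78%) lower, beside 17.6% and 17.7% of all tested genes, and their median log2 change was 0.31 against 0.01. The difference in shares was not tested. MALAT1 ranked 100th and NEAT1 140th among them by log2 change. At 3% O2, 129 (4.36%) were called higher and 10 (0.338%) lower, beside 4.2% and 3.11% of all genes. The median there was 0.36 over long noncoding genes and 0.64 over the 1559 tested genes of the annotation type antisense. At 20% O2 the antisense median was 0.34. The comparison at 3% O2 includes 3% O2 wo Doxy replicate 1, the library with the largest share of antisense counts. The part of that library in these medians was not tested. Between oxygen levels, 42 long noncoding genes were higher and 2 lower at 3% O2 with Doxy, and 208 were higher and 166 lower without Doxy. Over all tested genes, 1.63% were called higher and 0.385% lower with Doxy, and 13.9% and 11.9% without. The oxygen responses of the 6 RNAs were used to choose them, so nothing is read from their place in these shares.

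The neighbours of each RNA within 10 kb differed in their response. TMEM255B, the membrane protein gene that shares 62 exonic bases with GAS6-AS1 on the same strand, rose from 5.63 ± 0.585 to 14.1 ± 0.400 CPM upon FDX2 loss at 20% O2 (log2 1.32 ± 0.09, adjusted p = 1.66e-06, edgeR), while GAS6-AS1 fell. At 3% O2 it rose from 5.95 ± 0.429 to 10.7 ± 0.405 CPM (0.84 ± 0.09, adjusted p = 0.000451). PDK1 did not pass the test upon FDX2 loss at 20% O2 (0.04, adjusted p = 0.667) and fell by 0.40 at 3% O2 (SE 0.07, adjusted p = 0.00605). Its 2 responses differed by −0.44 (SE 0.10, adjusted p = 0.0208). GAS6 passed neither test (−0.05, adjusted p = 0.838 at 20% and 0.42, adjusted p = 0.172 at 3% O2), but after correction for GC content it was called higher in both (0.21, adjusted p = 0.00104, and 0.33, adjusted p = 0.000344). PHRF1, next to MIR210HG, fell by 0.95 at 20% O2 (adjusted p = 0.00599), and TLCD2, next to MIR22HG, rose by 1.04 from less than 1 CPM (adjusted p = 0.0364). FRMD8 and FAUP4 beside NEAT1 and WDR81 beside MIR22HG passed neither FDX2-loss test. FAUP4, a pseudogene, was higher at 3% O2 with Doxy (log2 1.198, adjusted p = 0.0116, edgeR) and without (0.70, adjusted p = 0.0281). The small RNA genes MIR22 and MIR612, within MIR22HG and NEAT1, had no counts.

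Genes of related function were taken as lists from general knowledge, with earlier results of these data known, and leave out the 6 RNAs themselves. All 15 paraspeckle protein genes were tested, and 12 fell upon FDX2 loss at 20% O2 while none rose, with a median log2 change of −0.44. Over all tested genes, 17.7% were called lower and 17.6% higher there, and 22.1% of protein-coding genes were called lower. RBM14 fell by 1.27 (adjusted p = 2.08e-05, edgeR), SFPQ by 0.87 (adjusted p = 2.68e-06) and HNRNPA1 by 0.62 (adjusted p = 0.000191). SFPQ and RBM14 are needed for paraspeckles to form on NEAT1, whose own level went the opposite way. At 3% O2, 5 of the 15 fell and none rose (median −0.16), beside 3.11% and 4.2% of all genes. Without 3% O2 wo Doxy replicate 1, 4 fell. With Doxy, none of the 15 differed between oxygen levels. In the difference between the FDX2-loss responses 7 were called, all with the higher value at 3% O2, where 3.21% of all genes were called higher, and 12 were called with the GC correction. Among the 7 were RBM14 (0.66, adjusted p = 0.0415) and SFPQ (0.48, adjusted p = 0.00976).

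Nuclear speckle genes encode splicing factors and scaffolds of the bodies in which MALAT1 is found. At 20% O2, 12 of 15 fell upon FDX2 loss and none rose (median −0.46), beside 17.7% and 17.6% of all genes. The highest log2 value in the list, 3.36, was not called. SRSF2 fell by 1.02 (adjusted p = 9.92e-06, edgeR), SRSF1 by 0.85 (adjusted p = 0.000153), PNN by 0.71 (adjusted p = 4.50e-05) and SRSF7 by 0.62 (adjusted p = 8.95e-06). At 3% O2 only SRSF6 (−0.23, adjusted p = 0.00917, edgeR) and SON (−0.17, adjusted p = 0.0419) fell, beside 3.11% of all genes. Just 1 gene was called without 3% O2 wo Doxy replicate 1. Without Doxy, 8 were higher at 3% than at 20% O2 and none lower, beside 13.9% and 11.9% of all genes.

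Protein-coding HIF targets and regulators gave the background to the oxygen response of MIR210HG. Of 23 tested, 15 rose and none fell at 3% O2 with Doxy (median log2 change 1.03, against 0.00 over all genes). The shares of all genes called were 1.63% higher and 0.385% lower. CA9, a carbonic anhydrase induced by hypoxia, rose from 0.0878 to 63.6 CPM (adjusted p = 3.01e-06, edgeR). ADM, PFKFB4 and ANGPTL4 rose by 2.98, 2.87 and 1.96 on the log2 scale (adjusted p of 0.0466, 1.86e-05 and 0.0213). Without Doxy, 16 rose and 3 fell (median 0.87), beside 13.9% and 11.9% of all genes. Upon FDX2 loss at 3% O2, EPAS1 rose by 0.70 (adjusted p = 0.00492, edgeR). BNIP3 fell by 0.60 (adjusted p = 0.000685), LDHA by 0.52 (adjusted p = 0.00133) and P4HA1 by 0.50 (adjusted p = 0.00209). There, 2 of 23 were called higher and 5 lower, beside 4.2% and 3.11% of all genes. FDX2 loss at 20% O2 gave 7 higher and 6 lower among the 23, beside 17.6% and 17.7% of all genes.

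Targets of miR-210 were also taken from general knowledge. Of 16 tested, 1 rose and none fell at 3% O2 with Doxy (median −0.04), beside 1.63% and 0.385% of all genes. The one that rose was BNIP3 (1.67, adjusted p = 6.13e-07, edgeR), itself a HIF target. ISCU had 39.1 CPM at 20% and 37.7 at 3% O2 with Doxy (log2 −0.05 ± 0.08, adjusted p = 0.876). Without Doxy it fell from 51.0 to 39.8 CPM (−0.36 ± 0.08, adjusted p = 0.00697, edgeR), and by 0.46 without 3% O2 wo Doxy replicate 1. A link of ISCU to miR-210 was not tested. ISCU rose upon FDX2 loss at 20% O2 (0.38 ± 0.08, adjusted p = 0.00280). Without Doxy, 5 of the 16 rose at 3% O2 and 2 fell, beside 13.9% and 11.9% of all genes. Of 11 tested miR-22 targets, 4 fell and 1 rose upon FDX2 loss at 20% O2 (median −0.10), beside 17.7% and 17.6% of all genes. With the GC correction 5 fell and 4 rose, and without 3% O2 wo Doxy replicate 1, 4 fell and 2 rose. Cyclin A2, CCNA2, fell by 1.08 (adjusted p = 4.11e-07, edgeR) and the nuclear receptor PPARA rose by 0.61 (adjusted p = 0.00299). Only mRNA levels are seen here, and repression of translation is not.

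Of the 11 genes of the pyruvate dehydrogenase switch, PDK1 and PDK3 (0.66, adjusted p = 0.0167, edgeR) rose at 3% O2 with Doxy and none fell. Without Doxy, PDK1 rose and PDK4 fell (−1.22, adjusted p = 0.0226), PDK4 having at most 1.05 CPM in the mean of any condition. With the GC correction 3 rose and 2 fell there. Of GAS6 and its 4 relatives, the TAM receptor TYRO3 fell at 3% O2 with Doxy (−0.40, adjusted p = 0.0471, a call lost without 3% O2 wo Doxy replicate 1) and without (−0.46, adjusted p = 0.00390), and AXL rose without Doxy (0.33, adjusted p = 0.0221). Upon FDX2 loss at 20% O2, PROS1 (0.45, adjusted p = 0.00595) and MERTK (0.43, adjusted p = 0.0277) rose. With the GC correction, 4 of these 5 rose upon FDX2 loss at 20% O2 and 3 upon FDX2 loss at 3% O2, where none was called without the correction. Between oxygen levels without Doxy, none was higher and 1 was lower at 3% O2 under this correction. With Doxy, 2 of the 5 were called lower at 3% O2 under this correction.

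Of 85 microRNA host genes in the table, 37 were tested, including MIR210HG and MIR22HG. Among the other 35, only MIR3150BHG rose at 3% O2 with Doxy (1.80, adjusted p = 0.0406, edgeR) and none fell, its level being at most 0.475 CPM in the mean of any condition. It was no longer called without 3% O2 wo Doxy replicate 1. Upon FDX2 loss at 20% O2, 8 of the 35 rose and 7 fell, beside 17.6% and 17.7% of all genes. Those with the largest increases were MIR4500HG, MIR34AHG, MIR3150BHG and MIR29B2CHG, by 2.10, 1.66, 1.65 and 1.42 on the log2 scale (adjusted p of 0.0344, 0.00862, 0.00724 and 9.01e-06). At 3% O2, 5 rose and none fell, and 4 rose without replicate 1 of 3% O2 wo Doxy. Of 15 other tested long noncoding RNAs described in hypoxia, 6 rose and 1 fell upon FDX2 loss at 20% O2, beside 17.6% and 17.7% of all genes. Long noncoding genes as a class had 17.3% and 3.78%. The rises were led by LUCAT1 (2.34, adjusted p = 0.00291, edgeR), GAS5 (0.95, adjusted p = 1.26e-05) and GAPLINC (0.85, adjusted p = 0.00255). SNHG3 fell by 0.54 (adjusted p = 2.02e-05). Between oxygen levels, 1 of these 15 was higher and none lower at 3% O2 with Doxy, beside 1.63% and 0.385% of all genes. Without Doxy, 3 were higher and 2 lower, beside 13.9% and 11.9%.

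Likeness over the 12 libraries was described by Pearson's r of log2(CPM + 0.1) among 10634 genes with a symbol and a mean of at least 5 CPM. These r rest on the 4 condition means and on shared libraries, so no test is given. Nearest to MIR210HG were TGFBI (r = 0.987), P4HA2 (0.983) and EGLN1 (0.981), the last being the oxygen-sensing HIF prolyl hydroxylase. Nearest to PDK1-AS1 were TNFRSF10D (0.989), CDCP1 (0.978) and NMNAT2 (0.976). GAS6-AS1 was most like IFITM2 (0.947), ITGB2-AS1 (0.947) and TIMP3 (0.941). NEAT1 was followed by AHCYL2 (0.996), SNX30 (0.992) and SMIM14 (0.991), MALAT1 by ABCC9 (0.996), SNX30 (0.992) and NABP1 (0.992), and MIR22HG by MMP3 (0.995), PRKCH (0.994) and PLIN2 (0.990). Among the 6 RNAs, NEAT1 and MALAT1 had r = 0.990, NEAT1 and MIR22HG 0.966, and MIR210HG and PDK1-AS1 0.970. The ratio of NEAT1 to MALAT1 CPM was 1.73 ± 0.109 at 20% O2 + Doxy, 1.55 ± 0.0463 at 20% O2 wo Doxy, 1.94 ± 0.0363 at 3% O2 + Doxy and 1.75 ± 0.160 at 3% O2 wo Doxy.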

How the data were processed

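Poly(A) RNA was purified on poly(T) beads, primed with random hexamers and sequenced in paired ends on a DNBSEQ-T7. Per the labels and the study's methods, the authors aligned reads with STAR, counted them with featureCounts on GRCh38, and deposited raw counts per gene, with no normalization. The strand setting and the annotation release are not given in the sources used here. All 58735 gene identifiers are in GENCODE 29, from which positions, lengths and exon overlaps were taken.

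Counts were tested with edgeR 4.0.16 (quasi-likelihood F test, TMM scaling) in R 4.3.3 on all 12 libraries with 4 condition means. Genes were kept by filterByExpr (minimum count 10, minimum total 15), and p-values were adjusted by Benjamini and Hochberg over 16891 genes, with calls at an adjusted p below 0.05. The 6 RNAs and all gene lists were chosen with earlier results of these data known. Genes were named by list membership, position within 10 kb and likeness. Alternatives included DESeq2 1.42.0, other filters, a GC correction, each library left out and a replicate block. Same-numbered libraries at 20% and 3% O2 wo Doxy had correlated deviations (0.409, 0.250 and 0.346). Differently numbered libraries of these conditions reached 0.0962 at most. Elsewhere differently numbered libraries had larger correlations, such as 0.825 for 20% O2 + Doxy replicate 1 and 3% O2 + Doxy replicate 3. These values therefore do not settle whether the numbers pair libraries, and the labels give no pairing. Some genes of the lists are not reported here.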

Additional observations from a re-analysis of the deposited data

Results flagged for a closer look

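GAS6-AS1 had FDX2-loss responses of opposite sign at the 2 oxygen levels. The fall at 20% O2 was called (adjusted p = 0.0180, edgeR), but not with the GC correction (adjusted p = 0.0931) or without some single libraries. The rise at 3% O2 was not called (adjusted p = 0.0712). All 3 libraries wo Doxy lay below those + Doxy at 20% O2 and above them at 3% O2, a difference between the log2 responses of 1.35 that was not tested, since it is also the difference of the oxygen responses used to choose the gene. It was 1.09 without 3% O2 wo Doxy replicate 1, the library with the largest share of antisense counts, whose part in the value was not tested beyond that.

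Of the neighbouring genes, PDK1 responded differently to FDX2 loss at 3% and at 20% O2 by −0.44 on the log2 scale (adjusted p = 0.0208, edgeR interaction test), and by −0.40 without that library (adjusted p = 0.0421). TMEM255B responded differently by −0.48 (adjusted p = 0.0430, edgeR), and the call was lost without that library (−0.50, adjusted p = 0.0513).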

How the results depend on the processing

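For the tested FDX2-loss responses of the 6 RNAs, 387 values were computed under the alternatives. Of these 368 stayed on their side of the threshold, 12 lost and 7 gained a call, and 2 changed sign. Both sign changes were the mean FDX2-loss response of GAS6-AS1, which was −0.04 as reported, 0.0277 with the GC correction, 0.0445 without 3% O2 wo Doxy replicate 3, and −0.17 at the lowest with a library left out. Of 363 values for the oxygen responses and the difference, which have no test, 13 changed sign. They were the differences of MIR210HG and PDK1-AS1, both −0.01 as reported, and the oxygen response of NEAT1 with Doxy, which went from 0.05 to −0.0031 without 3% O2 + Doxy replicate 1. Counts of called genes depended more on the settings, and the cause was not tested. FDX2 loss at 20% O2 gave 5961 genes, 3645 at an adjusted p below 0.01 and 910 with a 2-fold minimum (4423 to 6707 with each library left out). FDX2 loss at 3% O2 gave 1235, against 678 with no filter, 676 with the replicate block, 218 from the libraries compared alone, 404 below 0.01, 118 with the 2-fold minimum, 1944 by DESeq2 and 3050 with the GC correction (581 to 1645). The split was 709 higher and 526 lower, and 839 and 1105 by DESeq2. The difference of the responses gave 1231, against 672, 615 with the replicate block, 382 below 0.01, 186, 1916 by DESeq2 and 2993 with the GC correction (520 to 2191). Oxygen with Doxy gave 341, against 218 with the replicate block, 128 from the libraries compared alone, 181 below 0.01, 92, 629 by DESeq2 and 1194 with the GC correction (190 to 388). Its split was 276 higher and 65 lower, 412 and 217 by DESeq2, and 826 and 368 with the GC correction. Oxygen without Doxy, where same-numbered libraries had correlated deviations, gave 4360. It gave 3203 with the replicate block or 5081 with the block in its 6 libraries alone. The count was 1975 below 0.01 and 451 with the 2-fold minimum (2321 to 5225). The mean FDX2-loss response gave 5755, against 3619 and 503 (4782 to 5886). The block on all libraries changed no call of the 6 RNAs. A 2-fold minimum removed the calls of MIR22HG in every FDX2-loss comparison, that of GAS6-AS1 at 20% O2 and those of NEAT1 and MALAT1 at 3% O2. MIR210HG at 20% O2, with 8 to 23 counts, is the value most limited by depth.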
